A study of Mus musculus with 16 samples.

Results

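The core genes of the NF-κB pathway were followed through 4 stages of spermatogenesis in mice deficient for Tex10 and in wild-type mice. They were chosen by name: the Rel family subunits Nfkb1, Nfkb2, Rela, Relb and Rel, the IκB inhibitors Nfkbia, Nfkbib and Nfkbie, and the IκB kinase subunits Ikbkb and Chuk. Of these 10 genes, 9 had a row in the table of 13100 genes, found by symbol, and Relb was not analysed here. RNA came from spermatogenic cells sorted from the testes of 8-week-old C57BL/6J males, whose labels name spermatogonia, MI and MII spermatocytes, and spermatids, and was sequenced as bulk libraries enriched for polyadenylated RNA. The Tex10-deficient animals carried Tex10f/-; Stra8iCre, that is 1 floxed and 1 null Tex10 allele with a Cre recombinase under the Stra8 promoter, which acts in germ cells from the spermatogonial stage. The other animals were labelled wild type. Read literally, the controls carried neither the Cre nor the floxed or null allele, which rests on that label alone. Each of the 8 groups had 2 libraries, 16 in all. Nothing in the labels says whether both libraries of a group are from different animals, and p-values reflect only how far these samples scatter, possibly for technical reasons.

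NF-κB is a family of dimeric transcription factors that inhibitors of the IκB class hold in the cytoplasm until an IκB kinase marks the inhibitor for degradation. In the canonical arm, Ikbkb releases dimers of the Nfkb1 product p50 with Rela or Rel, and in the non-canonical arm Chuk drives the processing of the Nfkb2 product p100 to p52. Nfkbia, Nfkb1, Nfkb2 and Rel are themselves classic transcriptional targets of NF-κB, and in the rat testis NF-κB proteins have been described in the nuclei of Sertoli cells and spermatocytes.

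Tex10 itself, which encodes a nucleolar protein involved in ribosome assembly, was lower in both Tex10-deficient than in both wild-type libraries of every cell type, with an average log2 change of -1.68 (SE 0.15, limma, Benjamini-Hochberg adjusted p = 0.000488). Within single cell types it was called in MI spermatocytes (-2.17, adjusted p = 0.012), and not in spermatogonia (-1.65, adjusted p = 0.101), MII spermatocytes (-1.24, adjusted p = 0.095) or spermatids (-1.66, adjusted p = 0.226). Titles and cell type fields of the labels disagreed for 6 of the 8 Tex10-deficient libraries, and groups follow the titles. Across genes, each of these 8 libraries correlated best with wild-type cells of its title's type. With the field in place of the title, 3 members were called between genotypes in MI and 3 in MII spermatocytes, where grouping by title called 0. Values are FPKM, a level per transcript length and per library, and FPKM totals ran from 187713 to 533859 per library, which are not a depth. Replicate libraries correlated across genes at a Spearman rho of 0.881 (wild-type MII spermatocytes) to 0.971 (wild-type spermatids).

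The 4 MII libraries stood apart from their label in the marker lists. Summed over 12 spermatocyte markers, levels were 112 and 229.8 FPKM in Tex10-deficient and 292 and 780.1 FPKM in wild-type MII spermatocytes, against 3043 and 2142 FPKM in Tex10-deficient and 2798 and 2409 FPKM in wild-type MI spermatocytes. Of the 12, none was listed at 0 in both libraries of an MII group. The sums are not particular to spermatocytes, since they were highest in spermatids. There they were 5341 and 5166 FPKM in Tex10-deficient and 5682 and 5340 FPKM in wild-type cells. Most of that was Ldhc, at least 2134 FPKM, and Pgk2, at least 1791.7 FPKM in each spermatid library. Sycp3 was instead highest in MI spermatocytes, at 163 and 169 FPKM in Tex10-deficient and 372 and 240 FPKM in wild-type cells. In spermatids it stood at 73.4 and 52.3 FPKM in Tex10-deficient and 72.2 and 91.2 FPKM in wild-type cells. In MII spermatocytes it stood at 5.93 and 11.3 FPKM in Tex10-deficient and 19.9 and 47.3 FPKM in wild-type cells. Over 7 Leydig cell markers, of which none was listed at 0 in both libraries of any group, the sums were 1459 and 1255 FPKM in Tex10-deficient and 1391 and 899 FPKM in wild-type MII spermatocytes, against 24.6 and 70.05 FPKM in Tex10-deficient and 30.1 and 21.5 FPKM in wild-type MI spermatocytes. Over 15 immune cell markers, the sums were 402 and 446 FPKM in Tex10-deficient and 438 and 789 FPKM in wild-type MII spermatocytes. Spermatogonia held them too, with 562 and 353 FPKM in Tex10-deficient and 511 and 823 FPKM in wild-type spermatogonia, against 24.3 and 19.2 FPKM in Tex10-deficient and 14.99 and 11.7 FPKM in wild-type MI spermatocytes. In spermatids, 215 and 331 FPKM in Tex10-deficient and 283 and 218 FPKM in wild-type spermatids, the sum was nearly all Aif1, an actin-binding protein gene used as a macrophage marker, and without it the sums were 16.7 and 41.6 FPKM in Tex10-deficient and 12.1 and 9.44 FPKM in wild-type spermatids. There Tyrobp was listed at 0 in all 4 spermatid libraries, C1qa also in both Tex10-deficient ones, and C1qc, Cd68 and Laptm5 also in both wild-type ones. Over 12 immediate early and stress genes such as Fos and Jun, which cells also induce while tissue is dissociated, the sums were 8487 and 7919.6 FPKM in Tex10-deficient and 9484 and 5298 FPKM in wild-type MII spermatocytes, against 190.5 and 299.5 FPKM in Tex10-deficient and 441 and 152 FPKM in wild-type MI spermatocytes. All comparisons with MII spermatocytes below rest on these 4 libraries, and comparisons that do not use their levels are given as well. Those with spermatogonia rest on libraries that also held the immune cell markers. These libraries also had higher immediate early and stress sums than MI spermatocytes. They were 1498 and 642 FPKM in Tex10-deficient and 887 and 979.8 FPKM in wild-type spermatogonia. The sums of 5 myoid and endothelial markers were 51.6 and 64.7 FPKM in Tex10-deficient and 75.2 and 40.2 FPKM in wild-type spermatogonia. In MI spermatocytes these were 7.36 and 7.89 FPKM in Tex10-deficient and 10.1 and 4.80 FPKM in wild-type cells. The part of these lists in the differences between spermatogonia and MI spermatocytes was not tested.

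**Figure D1:**
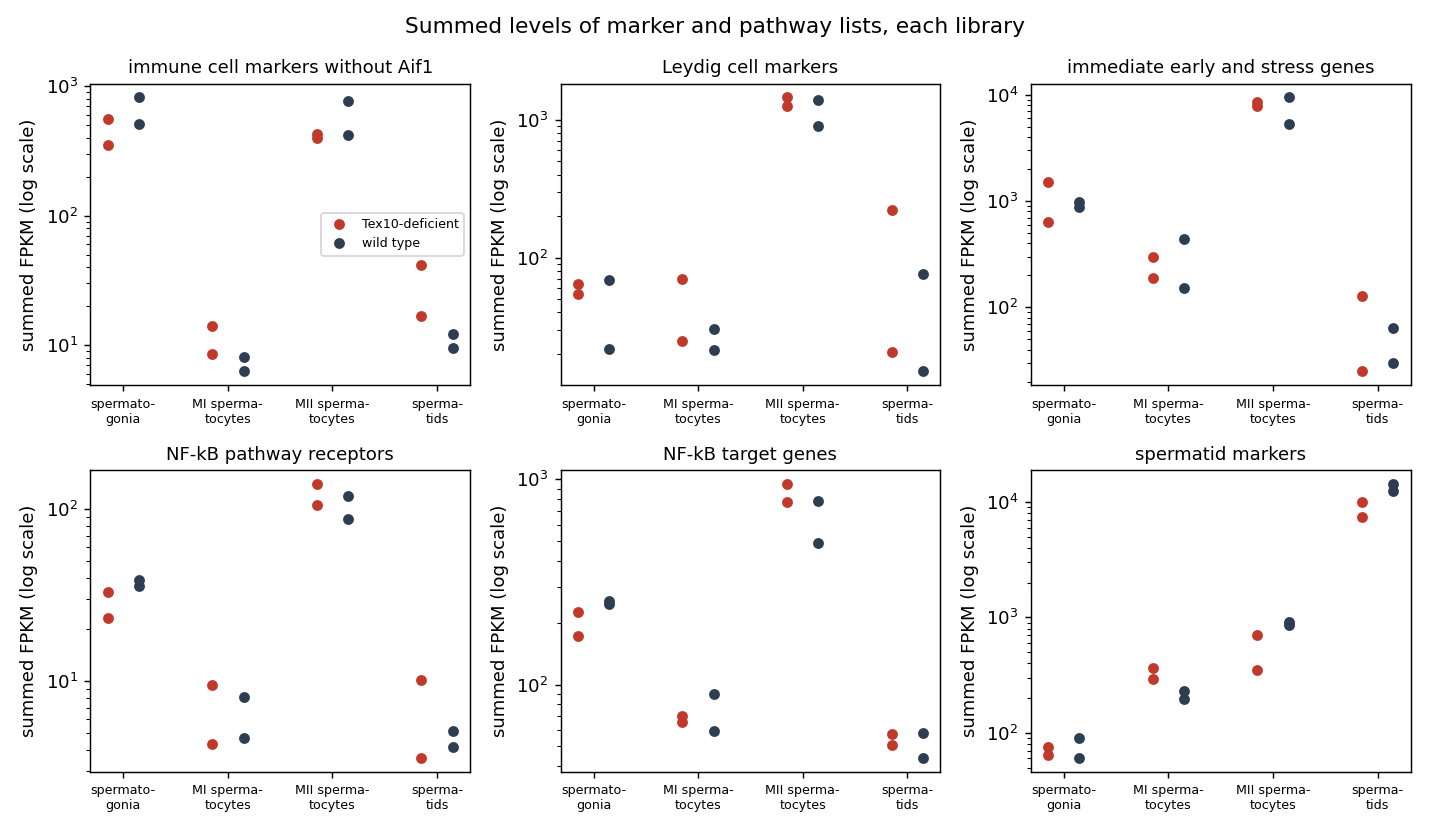
Summed FPKM of marker and pathway lists (log axis) in each library, by cell type, with Tex10-deficient libraries left of wild-type libraries. Immune marker sums, drawn without Aif1, Leydig cell and immediate early sums, and those of NF-κB pathway receptors and targets, are higher in all 4 MII libraries than in all 4 MI libraries.

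The upstream sequences show how the genes differ before any level is compared. Each stretch is the 250 bases before a transcription start in RefSeq (GRCm38.p6), available for 7 of the 9 genes, and capitals mark every match to the κB consensus, the binding motif of the Rel family, on either strand. The first start of Nfkb2 (chr19:46304487-46304736, plus strand), the start of Rel (chr11:23770970-23771219, minus strand) and that of Nfkbia (chr12:55492648-55492897, minus strand) are shown because they hold a match. Nfkbib (chr7:28766645-28766894, minus strand) is shown as the inhibitor gene with no match.
Nfkb2: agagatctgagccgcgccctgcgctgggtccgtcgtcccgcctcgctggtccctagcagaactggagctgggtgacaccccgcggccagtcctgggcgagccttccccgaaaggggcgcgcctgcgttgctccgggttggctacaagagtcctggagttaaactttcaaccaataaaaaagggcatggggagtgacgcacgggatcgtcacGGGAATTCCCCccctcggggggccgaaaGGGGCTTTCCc
Rel: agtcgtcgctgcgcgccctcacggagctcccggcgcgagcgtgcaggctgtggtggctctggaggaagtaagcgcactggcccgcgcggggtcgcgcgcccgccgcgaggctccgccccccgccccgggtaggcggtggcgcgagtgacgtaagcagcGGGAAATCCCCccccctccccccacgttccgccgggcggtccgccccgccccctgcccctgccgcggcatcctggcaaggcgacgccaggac
Nfkbia: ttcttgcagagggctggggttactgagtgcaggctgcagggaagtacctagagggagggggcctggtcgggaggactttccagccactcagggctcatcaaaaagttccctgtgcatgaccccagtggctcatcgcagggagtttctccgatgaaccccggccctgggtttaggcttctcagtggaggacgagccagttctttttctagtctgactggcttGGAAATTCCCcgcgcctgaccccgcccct
Nfkbib: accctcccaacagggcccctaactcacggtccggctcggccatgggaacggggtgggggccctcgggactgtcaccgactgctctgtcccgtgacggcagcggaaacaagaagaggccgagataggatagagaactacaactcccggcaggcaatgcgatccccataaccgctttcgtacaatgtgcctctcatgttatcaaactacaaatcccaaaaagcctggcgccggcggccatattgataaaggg
In the Nfkb2 window shown, the matches begin 39, 38 and 11 bases before the start, the first of them a palindrome read on both strands and overlapped by the second. In Rel they begin 92 and 91 bases before the start and overlap. The first of these matches the consensus on both strands without being a palindrome. In Nfkbia a single match begins 29 bases before the start. Counting Nfkbie, whose match begins 106 bases before its start, 4 of the 7 genes held the motif in at least 1 window, against 8.23% of 27025 genes. Nfkb2 has 3 windows in the table, each with a match, so that 6 of the 9 windows of these genes held one, against 7.25% of all 32851 windows. GC content was 64.8% in the Nfkb2 window shown, 77.6% in that of Rel, 59.2% in that of Nfkbia and 58.0% in that of Nfkbib, against a median of 52.4% over all windows. The windows of Rela, Nfkbib and Chuk held no match, which says only that these letters are not in these windows. The Nfkbib window and the Nfkb2 window shown lie inside the bounds that GENCODE gives these genes. A window at another annotated start would hold other letters, so the matches depend on the start used.

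Nfkb1 (XLOC_014134; chromosome 3, 135584655 to 135691547, minus strand, protein coding in GENCODE M21 on GRCm38, as for all 9 genes) encodes p105, the precursor of p50. It stood at 8.50 and 3.37 FPKM in Tex10-deficient and 3.16 and 3.82 FPKM in wild-type spermatogonia, and at 0.604 and 0.979 FPKM in Tex10-deficient and 1.29 and 0.561 FPKM in wild-type MI spermatocytes. It then stood at 14.3 and 21.3 FPKM in Tex10-deficient and 11.9 and 9.61 FPKM in wild-type MII spermatocytes, and at 1.30 and 1.27 FPKM in Tex10-deficient and 0.903 and 0.813 FPKM in wild-type spermatids. The order in both genotypes was MII spermatocytes, then spermatogonia, with MI spermatocytes and spermatids lowest and, in the wild type, overlapping. From MI to MII spermatocytes the log2(FPKM + 1) change was 3.37 in Tex10-deficient cells (SE 0.37, adjusted p = 6.62e-06) and 2.63 in wild-type cells (SE 0.37, adjusted p = 6.73e-05). Leaving MII spermatocytes aside, spermatids against MI spermatocytes differed by 0.36 in Tex10-deficient cells (SE 0.37, adjusted p = 0.461) and -0.02 in wild-type cells (SE 0.37, adjusted p = 0.965), and MI spermatocytes against spermatogonia by -1.85 in Tex10-deficient cells (SE 0.37, adjusted p = 0.00106) and -1.25 in wild-type cells (SE 0.37, adjusted p = 0.0118). The wild-type difference from spermatogonia was not called without wild-type MI replicate 2 (adjusted p = 0.114), without wild-type spermatogonia replicate 2 (adjusted p = 0.0683) or with a pseudocount of 5 (adjusted p = 0.0538).

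Nfkb2 (XLOC_010574; chromosome 19, 46304320 to 46312385, plus strand) encodes p100, the precursor of p52. It stood at 6.88 and 2.08 FPKM in Tex10-deficient and 2.18 and 1.92 FPKM in wild-type spermatogonia, and at 0.257 and 0.513 FPKM in Tex10-deficient and 0.276 and 0.109 FPKM in wild-type MI spermatocytes. Later values were 5.46 and 6.53 FPKM in Tex10-deficient and 6.19 and 6.49 FPKM in wild-type MII spermatocytes, and 0.0778 and 0.0723 FPKM in Tex10-deficient and 0.372 and 0.0964 FPKM in wild-type spermatids. All 8 MI and spermatid libraries lay under 1 FPKM, and the 4 MII libraries lay close together. Tex10-deficient spermatogonia replicate 1 was above every other spermatogonia library and every MII library. From MI to MII spermatocytes the log2 change was 2.34 in Tex10-deficient cells (SE 0.37, adjusted p = 8.49e-05) and 2.63 in wild-type cells (SE 0.37, adjusted p = 6.35e-05), and from MII spermatocytes to spermatids -2.70 in Tex10-deficient cells (SE 0.37, adjusted p = 1.33e-05) and -2.58 in wild-type cells (SE 0.37, adjusted p = 2.77e-05). Spermatids against MI spermatocytes differed by -0.36 in Tex10-deficient cells (SE 0.37, adjusted p = 0.457) and 0.04 in wild-type cells (SE 0.37, adjusted p = 0.935). Between MI spermatocytes and spermatogonia the change was -1.84 in Tex10-deficient cells (SE 0.37, adjusted p = 0.00105) and -1.36 in wild-type cells (SE 0.37, adjusted p = 0.00684), and the wild-type value was not called without wild-type MI replicate 2 (adjusted p = 0.0526) or with a pseudocount of 5 (adjusted p = 0.0573).

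Rela (XLOC_010290; chromosome 19, 5637483 to 5648130, plus strand) encodes p65, the subunit with the strong activation domain of the canonical dimer. It stood at 18.4 and 17.5 FPKM in Tex10-deficient and 16.7 and 14.4 FPKM in wild-type spermatogonia, and at 27.3 and 16.3 FPKM in Tex10-deficient and 19.9 and 19.6 FPKM in wild-type MI spermatocytes. In the later stages it stood at 35.3 and 29.98 FPKM in Tex10-deficient and 27.4 and 25.4 FPKM in wild-type MII spermatocytes, and at 15.2 and 5.39 FPKM in Tex10-deficient and 9.26 and 11.5 FPKM in wild-type spermatids. Rela was above 5 FPKM in all 16 libraries, on average highest in MII spermatocytes and lowest in spermatids. From MII spermatocytes to spermatids the log2 change was -1.72 in Tex10-deficient cells (SE 0.37, adjusted p = 0.000729) and -1.28 in wild-type cells (SE 0.37, adjusted p = 0.00639). Spermatids against MI spermatocytes differed by -1.12 in Tex10-deficient cells (SE 0.37, adjusted p = 0.0254) and -0.87 in wild-type cells (SE 0.37, adjusted p = 0.0717), and the Tex10-deficient difference rested on spermatids replicate 2 (-0.46 without it, adjusted p = 0.311) and MI replicate 1 (-0.77 without it, adjusted p = 0.191). It was also not called when only the compared libraries were fitted (adjusted p = 0.125). The wild-type difference was called when only its compared libraries were fitted (limma, adjusted p = 0.0146). It was also called after quantile normalization (-1.09, adjusted p = 0.0232) and with the replicate block (adjusted p = 0.0468), among other alternatives. Tex10-deficient spermatids replicate 2 also had higher marker sums of other cell types, with a Leydig cell marker sum of 222 FPKM, against 20.6 FPKM in replicate 1. The sum of 3 Sertoli cell markers was 55.3 FPKM in it, against 12.7 FPKM in replicate 1, and the immediate early sum was 129 FPKM, against 24.98 FPKM. Their part in the values of that library was not tested.

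Rel (XLOC_003447; chromosome 11, 23736847 to 23770970, minus strand) encodes c-Rel, a subunit best known from lymphocytes. It stood at 14.8 and 20.01 FPKM in Tex10-deficient and 17.3 and 22.04 FPKM in wild-type spermatogonia, and at 1.73 and 2.39 FPKM in Tex10-deficient and 2.21 and 2.26 FPKM in wild-type MI spermatocytes. The later stages gave 1.84 and 2.45 FPKM in Tex10-deficient and 3.79 and 3.23 FPKM in wild-type MII spermatocytes, and 0.518 and 1.03 FPKM in Tex10-deficient and 0.813 and 0.351 FPKM in wild-type spermatids. Every spermatogonia library lay above every library of the later stages. Between MI spermatocytes and spermatogonia the log2 change was -2.58 in Tex10-deficient cells (SE 0.30, adjusted p = 1.91e-05) and -2.67 in wild-type cells (SE 0.30, adjusted p = 1.10e-05), called without each library in turn. In bulk samples, fewer cells of a type and less RNA per cell cannot be told apart. T and NK cell markers were also highest in spermatogonia: over the 6 measured, the sums were 93.8 and 95.4 FPKM in Tex10-deficient and 76.9 and 20.6 FPKM in wild-type spermatogonia, against 2.93 and 1.71 FPKM in Tex10-deficient and 0.637 and 1.18 FPKM in wild-type MI spermatocytes. Immune marker sums, given above, moved the same way, and their part in the Rel difference was not tested. Spermatids against MII spermatocytes differed by -0.83 in Tex10-deficient cells (SE 0.30, adjusted p = 0.0224) and -1.52 in wild-type cells (SE 0.30, adjusted p = 0.000435). The Tex10-deficient value was not called without MII replicate 2 (adjusted p = 0.119) or spermatids replicate 1 (adjusted p = 0.146), after quantile normalization (-0.31, adjusted p = 0.351) or with a pseudocount of 5 (-0.31, adjusted p = 0.104). Against MI spermatocytes, spermatids differed by -0.79 in Tex10-deficient cells (SE 0.30, adjusted p = 0.0494) and -1.05 in wild-type cells (SE 0.30, adjusted p = 0.0131). The Tex10-deficient value was called in only 1 of the 16 fits that each left out 1 library. It was called in 5 of 10 other alternatives, the grouping by the cell type field aside. It was lost with a pseudocount of 5 (adjusted p = 0.183), median-of-ratios scaling (adjusted p = 0.0515) and quantile normalization (adjusted p = 0.098). It was also lost in the fits of only the compared libraries (adjusted p = 0.116) and without the MII libraries (adjusted p = 0.0569). The wild-type value was called in 13 of the 16 fits, and not without MI replicate 1 (-1.06), MI replicate 2 (-1.04) or spermatids replicate 2 (-0.84). With a pseudocount of 5 it was not called either (adjusted p = 0.0846).

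Nfkbia (XLOC_004834; chromosome 12, 55489410 to 55492647, minus strand) encodes IκBα, which NF-κB induces and which in turn ends the response. It stood at 6.59 and 3.33 FPKM in Tex10-deficient and 4.93 and 2.62 FPKM in wild-type spermatogonia, and at 0.778 and 0.841 FPKM in Tex10-deficient and 1.36 and 0.425 FPKM in wild-type MI spermatocytes. It then stood at 22.7 and 24.6 FPKM in Tex10-deficient and 22.7 and 8.35 FPKM in wild-type MII spermatocytes, and at 0.669 and 0.780 FPKM in Tex10-deficient and 0.567 and 0.323 FPKM in wild-type spermatids. Every MII library was above every other library, and MI spermatocytes and spermatids overlapped in both genotypes. The MII to MI difference was 3.77 in Tex10-deficient cells (SE 0.44, adjusted p = 9.09e-06) and 3.02 in wild-type cells (SE 0.44, adjusted p = 8.30e-05). The wild-type MII libraries were far apart, with 22.7 FPKM in replicate 1 and 8.35 FPKM in replicate 2, and the immediate early sums of the same libraries were 9484 and 5298 FPKM. Without wild-type MII replicate 1 or 2, the wild-type change ran from 2.35 to 3.70 and was called in each case. From MII spermatocytes to spermatids it was -3.84 in Tex10-deficient cells (SE 0.44, adjusted p = 2.93e-06) and -3.37 in wild-type cells (SE 0.44, adjusted p = 1.41e-05). Spermatids against MI spermatocytes differed by -0.07 in Tex10-deficient cells (SE 0.44, adjusted p = 0.91) and -0.35 in wild-type cells (SE 0.44, adjusted p = 0.551). Between MI spermatocytes and spermatogonia it was -1.66 in Tex10-deficient cells (SE 0.44, adjusted p = 0.00636) and -1.34 in wild-type cells (SE 0.44, adjusted p = 0.0198). That wild-type call was lost without wild-type MI replicate 2 (adjusted p = 0.173), without spermatogonia replicate 1 (adjusted p = 0.159) and with a pseudocount of 5 (adjusted p = 0.0979), and the Tex10-deficient call was lost without spermatogonia replicate 1 (adjusted p = 0.0726).

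Nfkbib (XLOC_019646; chromosome 7, 28758251 to 28767512, minus strand) encodes IκBβ, an inhibitor that is degraded more slowly than IκBα in many cells. It stood at 7.24 and 9.58 FPKM in Tex10-deficient and 13.4 and 6.48 FPKM in wild-type spermatogonia, and at 20.5 and 15.97 FPKM in Tex10-deficient and 15.3 and 11.3 FPKM in wild-type MI spermatocytes. Later values were 10.4 and 13.2 FPKM in Tex10-deficient and 12.4 and 16.6 FPKM in wild-type MII spermatocytes, and 75.1 and 77.4 FPKM in Tex10-deficient and 62.97 and 55.7 FPKM in wild-type spermatids. All 4 spermatid libraries lay above all 12 others. Against MI spermatocytes, a comparison that does not use MII levels, the log2 change in spermatids was 2.01 in Tex10-deficient cells (SE 0.32, adjusted p = 0.000227) and 2.09 in wild-type cells (SE 0.32, adjusted p = 0.000151). The SE and adjusted p came from the fit of all 16 libraries. With each library left out in turn the change ran from 1.84 to 2.19 in Tex10-deficient and from 1.89 to 2.29 in wild-type cells, called throughout. Against MII spermatocytes it was 2.60 in Tex10-deficient cells (SE 0.32, adjusted p = 5.86e-06) and 1.97 in wild-type cells (SE 0.32, adjusted p = 8.67e-05). Between MI spermatocytes and spermatogonia it was 1.03 in Tex10-deficient cells (SE 0.32, adjusted p = 0.0163) and 0.45 in wild-type cells (SE 0.32, adjusted p = 0.26), and the Tex10-deficient value was not called without spermatogonia replicate 1 (adjusted p = 0.11) or MI replicate 1 (adjusted p = 0.107). Beside the high spermatid level, 15 spermatid markers summed to 7413 and 9999 FPKM in Tex10-deficient and 12553 and 14309.8 FPKM in wild-type spermatids, against 290.3 and 362 FPKM in Tex10-deficient and 231 and 198 FPKM in wild-type MI spermatocytes.

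Nfkbie (XLOC_008933; chromosome 17, 45555703 to 45563169, plus strand) encodes IκBε, another NF-κB-induced inhibitor. It stood at 6.77 and 5.53 FPKM in Tex10-deficient and 3.29 and 3.07 FPKM in wild-type spermatogonia, and at 1.51 and 1.75 FPKM in Tex10-deficient and 0.801 and 2.89 FPKM in wild-type MI spermatocytes. In the later stages it stood at 5.18 and 2.77 FPKM in Tex10-deficient and 3.19 and 2.97 FPKM in wild-type MII spermatocytes, and at 0.511 and 0.0848 FPKM in Tex10-deficient and 0.755 and 0.107 FPKM in wild-type spermatids. Levels were lowest in spermatids, below 1 FPKM in all 4 libraries. From MII spermatocytes to spermatids the log2 change was -1.91 in Tex10-deficient cells (SE 0.39, adjusted p = 0.000458) and -1.55 in wild-type cells (SE 0.39, adjusted p = 0.00245), and the wild-type value was not called after quantile normalization (-0.75, adjusted p = 0.185). Leaving MII spermatocytes aside, MI spermatocytes against spermatogonia differed by -1.44 in Tex10-deficient cells (SE 0.39, adjusted p = 0.0073) and -0.66 in wild-type cells (SE 0.39, adjusted p = 0.171). The Tex10-deficient value was not called with a pseudocount of 0.1 (adjusted p = 0.0659), and the wild-type value was called without MI replicate 2 (-1.21, adjusted p = 0.0378). Spermatids against MI spermatocytes differed by -1.04 in Tex10-deficient cells (SE 0.39, adjusted p = 0.0448) and -0.93 in wild-type cells (SE 0.39, adjusted p = 0.0694), and the Tex10-deficient value was not called without spermatids replicate 2 (adjusted p = 0.213) or MI replicate 2 (adjusted p = 0.158), among other alternatives.

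Within the inhibitor class the mix of genes changed with stage, and FPKM, being per length, allows levels to be compared between genes. Of the summed Nfkbia, Nfkbib and Nfkbie FPKM, Nfkbib held 35.2% and 51.97% in Tex10-deficient and 61.9% and 53.3% in wild-type spermatogonia. Its share was 89.98% and 86.03% in Tex10-deficient and 87.6% and 77.4% in wild-type MI spermatocytes, and 27.2% and 32.5% in Tex10-deficient and 32.3% and 59.5% in wild-type MII spermatocytes. In spermatids it held 98.5% and 98.9% in Tex10-deficient and 97.9% and 99.2% in wild-type spermatids. Spermatids thus carried inhibitor transcripts almost wholly from Nfkbib in all 4 libraries. Of the 4 subunits measured, Rela held 91.3% and 80.8% in Tex10-deficient and 84.02% and 87.01% in wild-type MI spermatocytes. In spermatogonia Rela and Rel were close, Rela at 37.9% and 40.8% in Tex10-deficient and 42.4% and 34.2% in wild-type spermatogonia and Rel at 30.5% and 46.6% in Tex10-deficient and 44.1% and 52.2% in wild-type spermatogonia. These shares are descriptions and were not tested.

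**Figure D2:**
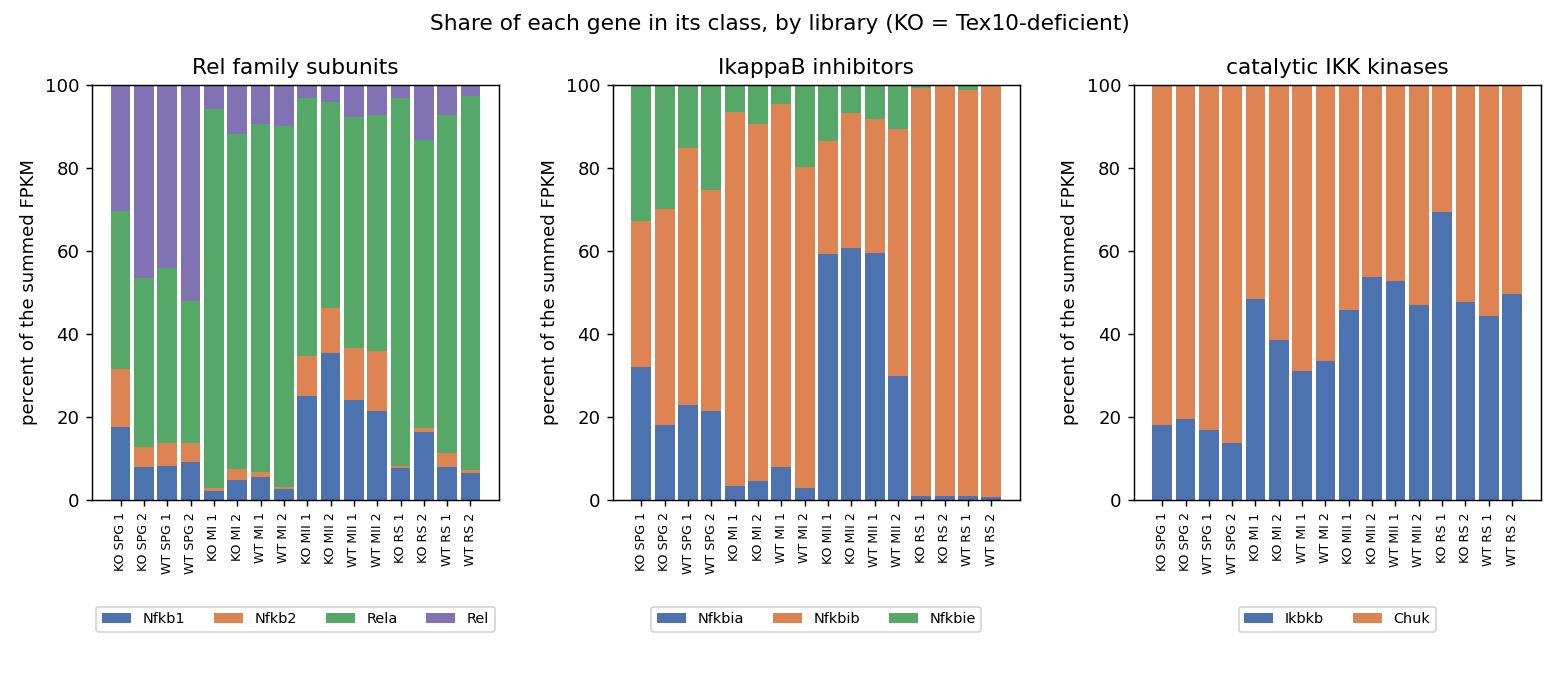
Share of each gene in the summed FPKM of its class (percent of the class), for the Rel family subunits, the IκB inhibitors and the catalytic kinases, with 1 bar per library (SPG, spermatogonia; RS, spermatids) and KO (Tex10-deficient) left of WT (wild type) in each cell type. Nfkbib holds at least 97.9% of the inhibitor sum in each spermatid library.

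The kinase genes moved in different ways. Chuk (XLOC_010941; chromosome 19, 44073335 to 44107480, minus strand) encodes IKKα, the kinase of the non-canonical arm, and stood at 30.6 and 54.7 FPKM in Tex10-deficient and 44.8 and 50.4 FPKM in wild-type spermatogonia, and at 9.66 and 11.2 FPKM in Tex10-deficient and 12.3 and 10.9 FPKM in wild-type MI spermatocytes. The later stages gave 5.95 and 6.63 FPKM in Tex10-deficient and 7.20 and 7.09 FPKM in wild-type MII spermatocytes, and 3.17 and 4.58 FPKM in Tex10-deficient and 6.02 and 5.03 FPKM in wild-type spermatids. The level was lower at each later stage in both genotypes, with no overlap between neighbouring stages. The change from MI to MII spermatocytes was not called, at -0.65 in Tex10-deficient (limma, adjusted p = 0.0714) and -0.63 in wild-type cells (adjusted p = 0.0821). After quantile normalization it was called in both genotypes (adjusted p = 0.00949 and 0.00994). The change from MII spermatocytes to spermatids was not called in either genotype. Between MI spermatocytes and spermatogonia the log2 change was -1.88 in Tex10-deficient cells (SE 0.29, adjusted p = 0.00018) and -1.94 in wild-type cells (SE 0.29, adjusted p = 0.000117), called without each library in turn. Spermatids against MI spermatocytes differed by -1.24 in Tex10-deficient cells (SE 0.29, adjusted p = 0.00403) and -0.96 in wild-type cells (SE 0.29, adjusted p = 0.0181), and the wild-type value was not called without wild-type MI replicate 1 (adjusted p = 0.103), MI replicate 2 (adjusted p = 0.052) or spermatids replicate 2 (adjusted p = 0.111).

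Ikbkb (XLOC_021188; chromosome 8, 22659212 to 22706589, minus strand) encodes IKKβ, the kinase of the canonical arm. It stood at 6.71 and 13.3 FPKM in Tex10-deficient and 8.99 and 8.08 FPKM in wild-type spermatogonia, and at 9.05 and 7.03 FPKM in Tex10-deficient and 5.55 and 5.50 FPKM in wild-type MI spermatocytes. Levels in the later stages were 5.01 and 7.66 FPKM in Tex10-deficient and 8.04 and 6.29 FPKM in wild-type MII spermatocytes, and 7.20 and 4.18 FPKM in Tex10-deficient and 4.79 and 4.96 FPKM in wild-type spermatids. Neighbouring stages overlapped in the Tex10-deficient libraries. In the wild-type libraries they did not, with spermatogonia highest, then MII spermatocytes, MI spermatocytes and spermatids. Ikbkb was the only member called in none of the 8 comparisons between cell types. Their 95% intervals lay between -1.29 and 1.06.

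**Figure D3:**
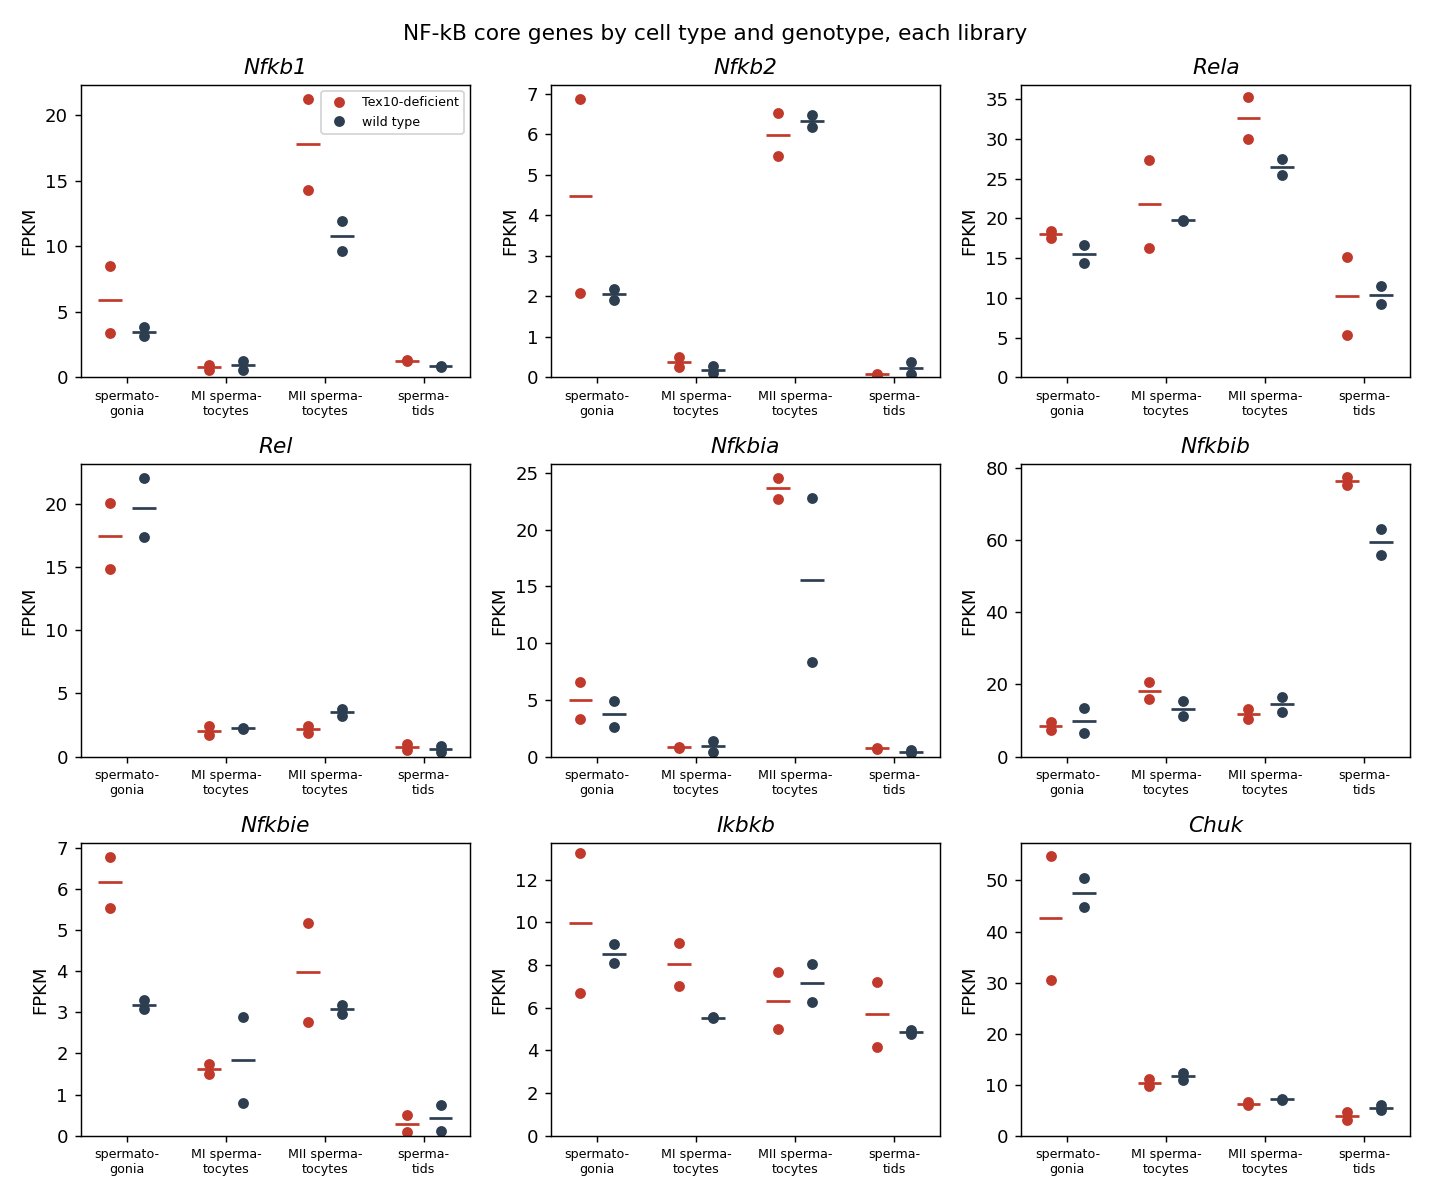
FPKM of each of the 9 genes (linear axis from 0, scaled for each gene) in each of the 16 libraries, by cell type, with Tex10-deficient points left of wild-type points and a line at each group's mean. Nfkb1, Nfkb2 and Nfkbia are high in MII spermatocytes, Rel and Chuk in spermatogonia and Nfkbib in spermatids.

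Counted together, from spermatogonia to MI spermatocytes 1 of the 9 members rose in Tex10-deficient cells, against 26.5% of all 13099 genes tested, and 6 fell, against 24.7%. In wild-type cells 0 rose, against 26.3%, and 5 fell, against 25.7%. From MI to MII spermatocytes Nfkb1, Nfkb2 and Nfkbia rose and 0 members fell in each genotype. All genes gave 31.6% risen and 30.1% fallen in Tex10-deficient and 30% risen and 27.2% fallen in wild-type cells. From MII spermatocytes to spermatids 1 rose and 6 fell in each genotype. There 38.9% of all genes rose and 36.9% fell in Tex10-deficient cells, and 38.8% rose and 35% fell in wild-type cells. From MI spermatocytes to spermatids 1 member rose in Tex10-deficient cells, against 23.6% of all genes, and 4 fell, against 18.8%. In wild-type cells 1 rose, against 22.6%, and 2 fell, against 19.8%. With 9 members, a difference of few genes separates these counts from the background, and nothing particular to the pathway was read from them. All 9 members passed the filter of 1 FPKM in 2 libraries, but Nfkb2 reached 1 FPKM in only 8 and Nfkbia in only 9 of the 16 libraries. Fitted without the MII libraries, 7 members in Tex10-deficient and 5 in wild-type cells were called from spermatogonia to MI spermatocytes, and 4 in Tex10-deficient and 3 in wild-type cells from MI spermatocytes to spermatids. Leaving out 1 library lowered the wild-type counts to 3 from spermatogonia to MI spermatocytes (without MI replicate 2) and to 1 from MI spermatocytes to spermatids (without MI replicate 2 or spermatids replicate 2). The Tex10-deficient count from MI spermatocytes to spermatids was 5, was 2 without MI replicate 1, and was 3 without each of 7 others in turn (the 4 spermatogonia libraries, Tex10-deficient MI replicate 2 and both Tex10-deficient spermatid libraries), with Rel and Nfkbie (adjusted p = 0.0494 and 0.0448) close to the threshold. The genotypes share no libraries, while successive comparisons share a cell type.

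Tex10 deficiency was the comparison the study was built on, and no member was called in it. In spermatogonia 0 of 9 members were called, against 0.0153% of all genes, and likewise 0 in MI spermatocytes against 0.168%, 0 in MII spermatocytes against 0.00763% and 0 in spermatids against 0%. The average over the 4 cell types called 0 members against 0.0992% of all genes, and the F test of whether the genotype effect differed between cell types called 0 against 0%. With limma, 0 members also passed an unadjusted p of 0.05 in each of these 6 tests, in which 865, 765, 1738, 284, 1437 and 850 genes did. The 36 changes, 9 members in 4 cell types, ran from -0.52 to 0.77 in log2, with SEs of 0.29 to 0.44. All 36 of the 95% intervals included 0, and 20 of them lay within 1 log2 unit of 0, while the other 16 reached a log2 change of 1 or more in at least 1 direction. The missed threshold does not show that the genotypes were alike.

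The largest genotype changes were in single cell types. Nfkbie was higher in both Tex10-deficient than in both wild-type spermatogonia libraries, by 0.77 (SE 0.39, 95% interval -0.06 to 1.60, adjusted p = 0.808). Nfkb2 and Nfkb1 in spermatogonia differed by 0.69 (SE 0.37, 95% interval -0.09 to 1.48, adjusted p = 0.837) and 0.52 (SE 0.37, 95% interval -0.27 to 1.32, adjusted p = 0.939), where replicate 1 of the Tex10-deficient cells alone was high. The immediate early and stress sum was also high in that library, at 1498 and 642 FPKM in Tex10-deficient and 887 and 979.8 FPKM in wild-type spermatogonia, and its part was not tested. In MII spermatocytes Nfkb1 was higher in both Tex10-deficient libraries, by 0.66 (SE 0.37, 95% interval -0.14 to 1.45, adjusted p = 0.498), and Rel was lower in both, with a difference of -0.52 (SE 0.30, 95% interval -1.18 to 0.13, adjusted p = 0.515). Nfkbia there differed by 0.72 (SE 0.44, 95% interval -0.22 to 1.66, adjusted p = 0.537), with the Tex10-deficient libraries at 22.7 and 24.6 FPKM and the wild-type ones at 22.7 and 8.35 FPKM. Over the 4 cell types, the average change was largest for Nfkb1 at 0.35 (SE 0.19, adjusted p = 0.519).

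**Figure D4:**
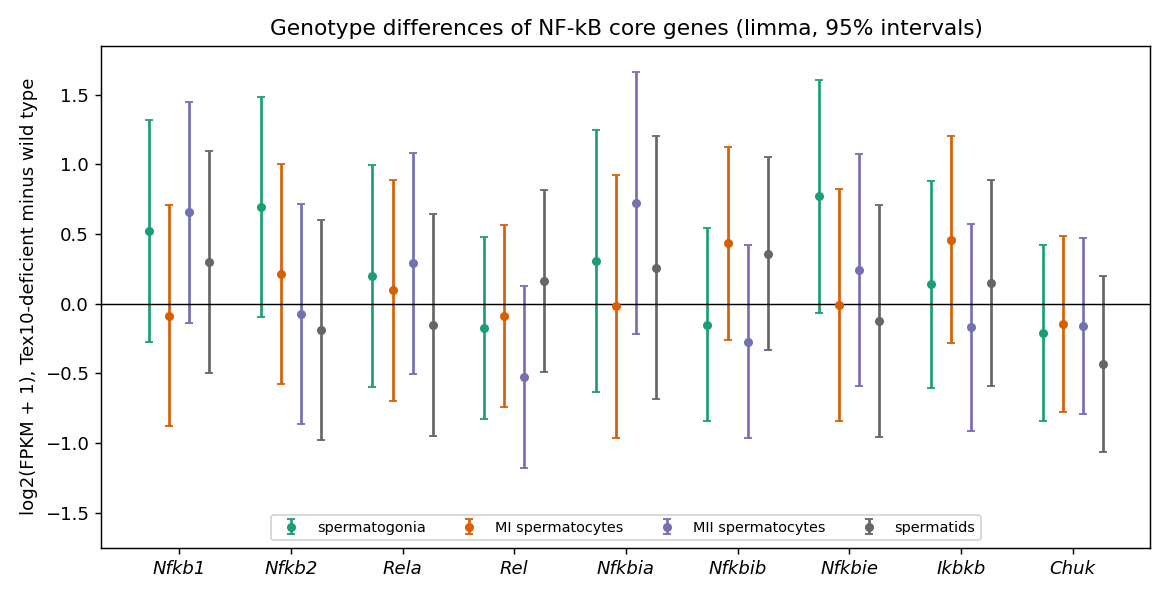
Log2(FPKM + 1) change, Tex10-deficient minus wild type, of each of the 9 genes in each cell type, with 95% intervals. All 36 intervals include 0.

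The groups did not overlap for 13 of the 36 member and cell type pairs. In spermatogonia these were Rela and Nfkbie, both higher in Tex10-deficient cells, where 16.9% of all genes were higher and 19.6% lower without overlap. In MI spermatocytes they were Nfkbib and Ikbkb, both higher, against 15.7% higher and 18.4% lower of all genes. In MII spermatocytes Nfkb1 and Rela were higher and Rel and Chuk lower, against 17.3% and 18% of all genes. In spermatids Nfkb1, Nfkbia and Nfkbib were higher and Nfkb2 and Chuk lower, against 11.7% and 15.9%. With 9 members a cell type, these counts were not read as changes.

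Other genes of the pathway were described from lists chosen with earlier results known. From MI to MII spermatocytes 31.6% of all genes rose and 30.1% fell in Tex10-deficient cells, with a median log2 change of -0.03, and 30% rose and 27.2% fell in wild-type cells, with a median of 0.05. Of 8 receptors tested, 8 rose and 0 fell in Tex10-deficient cells, with a median log2 change of 2.31, and 8 rose and 0 fell in wild-type cells, with a median of 2.36. Il1r1, the interleukin 1 receptor, stood at 46.7 and 67.9 FPKM in Tex10-deficient and 59.2 and 39.01 FPKM in wild-type MII spermatocytes, and the MII minus MI change was 4.17 in Tex10-deficient and 3.89 in wild-type cells. Tnfrsf1a, the main receptor for tumour necrosis factor, changed by 3.52 in Tex10-deficient and 3.17 in wild-type cells. Of 19 NF-κB targets tested, 13 rose and 1 fell in Tex10-deficient cells, with a median log2 change of 3.34, and 13 rose and 1 fell in wild-type cells, with a median of 3.44. Csf1, which encodes a macrophage growth factor, stood at 182 and 219.6 FPKM in Tex10-deficient and 154 and 91.5 FPKM in wild-type MII spermatocytes, and Ier3, an immediate early gene, at 259 and 119 FPKM in Tex10-deficient and 189 and 79.4 FPKM in wild-type MII spermatocytes. The Leydig cell, immune and immediate early sums moved the same way in all 4 MII libraries. So did the myoid and endothelial sums, at 104.6 and 127.2 FPKM in Tex10-deficient and 126 and 73.7 FPKM in wild-type MII spermatocytes. The Sertoli sums also did, at 51.5 and 30.8 FPKM in Tex10-deficient and 42.4 and 36.2 FPKM in wild-type cells. T and NK cell sums did not, at 0.817 and 0.348 FPKM in Tex10-deficient and 0.289 and 0.704 FPKM in wild-type cells. The part of these lists was not tested. From MII spermatocytes to spermatids, of the 8 receptors 0 rose and 8 fell in Tex10-deficient cells, with a median log2 change of -2.23, and 0 rose and 8 fell in wild-type cells, with a median of -2.50. Of the 19 targets in that step, 3 rose and 14 fell in Tex10-deficient cells, with a median log2 change of -3.39, and 3 rose and 14 fell in wild-type cells, with a median of -4.44. The shares of all genes were 38.9% risen and 36.9% fallen in Tex10-deficient and 38.8% risen and 35% fallen in wild-type cells.

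From MI to MII spermatocytes, of 22 adaptors and kinases 12 rose and 2 fell in Tex10-deficient cells, with a median log2 change of 0.81, and 13 rose and 2 fell in wild-type cells, with a median of 0.94, beside the 31.6% risen and 30.1% fallen of all genes in Tex10-deficient and 30% and 27.2% in wild-type cells. Birc3, an ubiquitin ligase that is also an NF-κB target, changed by 4.0 in Tex10-deficient and 3.68 in wild-type cells, and Irak1, a kinase below the interleukin 1 and Toll-like receptors, by 3.26 in Tex10-deficient and 3.01 in wild-type cells. Of 14 negative regulators and atypical inhibitors, 7 rose and 0 fell in Tex10-deficient cells, with a median log2 change of 0.77, and 7 rose and 1 fell in wild-type cells, with a median of 0.97, beside the same shares of all genes. Nfkbiz, an inducible nuclear IκB protein, stood at 27.8 and 23.5 FPKM in Tex10-deficient and 34.7 and 32.2 FPKM in wild-type MII spermatocytes. Tnfaip3, which encodes the deubiquitinase A20, was highest in spermatogonia, at 43.8 and 21.3 FPKM in Tex10-deficient and 18.4 and 12.2 FPKM in wild-type spermatogonia, and lower in MI spermatocytes, with a change of -4.33 in Tex10-deficient and -3.38 in wild-type cells. All 4 of the tested ligand genes, Tnf, Il1b, Ltb and Il1a, changed between spermatogonia and MI spermatocytes in both genotypes, where 26.5% of all genes rose and 24.7% fell in Tex10-deficient and 26.3% rose and 25.7% fell in wild-type cells. Il1a changed by 1.73 in Tex10-deficient and 2.18 in wild-type cells, and the other 3 fell.

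From MI spermatocytes to spermatids, a comparison that does not use MII levels, 23.6% of all genes rose and 18.8% fell in Tex10-deficient cells, with a median log2 change of 0.01, and 22.6% rose and 19.8% fell in wild-type cells, with a median of -0.01. Of 8 receptors, 0 rose and 0 fell in Tex10-deficient cells, with a median log2 change of -0.06, and 0 rose and 0 fell in wild-type cells, with a median of -0.13. At an unadjusted limma p under 0.05 there were 0 in Tex10-deficient and 0 in wild-type cells. Of 22 adaptors and kinases, 2 rose and 5 fell in Tex10-deficient cells, with a median log2 change of -0.31, and 2 rose and 6 fell in wild-type cells, with a median of -0.44. Ube2n, the conjugating enzyme for K63-linked ubiquitin chains, changed by 1.79 in Tex10-deficient and 1.96 in wild-type cells. Of 14 negative regulators, 2 rose and 3 fell in Tex10-deficient cells, with a median log2 change of -0.06, and 2 rose and 4 fell in wild-type cells, with a median of -0.27. Tax1bp1, an adaptor of A20 counted among these regulators, changed by 1.24 in Tex10-deficient and 1.69 in wild-type cells. Of 19 targets, 1 rose and 3 fell in Tex10-deficient cells, with a median log2 change of -0.41, and 2 rose and 4 fell in wild-type cells, with a median of -0.69. Of 4 ligands, 1 rose and 0 fell in Tex10-deficient cells, with a median log2 change of 0.29, and 0 rose and 0 fell in wild-type cells, with a median of -0.29, and at an unadjusted limma p under 0.05 there were 1 in Tex10-deficient and 0 in wild-type cells. Nothing particular to the lists was read from these counts. For the genotype comparisons in each cell type and on average, 0 members of the 5 pathway lists were called.

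**Figure D5:**
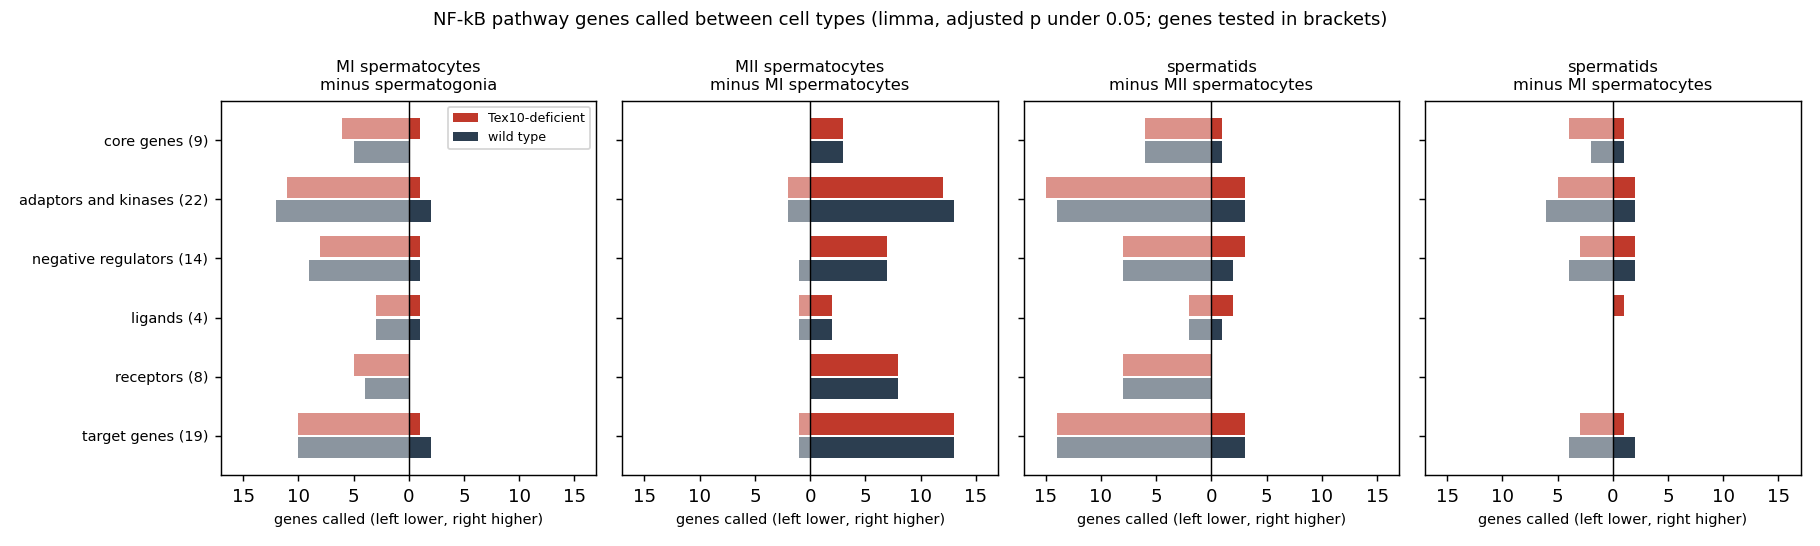
Number of genes called higher (right of 0) and lower (left of 0, paler) in 4 comparisons of cell types, for the core genes and 5 pathway lists, with the Tex10-deficient bar above the wild-type bar of each list. In the MII minus MI panel all 8 receptors are on the higher side in both genotypes.

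The genes whose pattern was most like that of Rela, Nfkbia and Ikbkb were sought among 8170 genes by Pearson r of log2(FPKM + 1) over the 16 libraries, which share cell fractions. For Nfkbia the nearest 5 were Aco1 (r = 0.987), Got2 (r = 0.983), C3 (r = 0.982), Eif4e3 (r = 0.982) and Adamts1 (r = 0.981). For Rela they were Zfp652 (r = 0.912), Hibadh (r = 0.902), Gab1 (r = 0.900), Dock6 (r = 0.900) and Hdhd2 (r = 0.897). For Ikbkb they were Rab3gap2 (r = 0.857), Dcaf10 (r = 0.810), Mtmr3 (r = 0.801), Cmas (r = 0.801) and Ppan (r = 0.789), lower than for the other genes.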

How the data were processed

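RNA was measured in 16 libraries of sorted mouse spermatogenic cells, 2 in each of 8 groups. The submitters' processing notes name Cufflinks 2.2.1, STAR 2.7.6a, Trim Galore 0.6.3, cutadapt, FastQC 0.10.1 and the build mm10, without roles. The deposited values were FPKM, which scale fragments by transcript length and by library. Their minimum was 1, and decimals were dropped just above 11 and 101, as when 1 is added to FPKM. From these values it was inferred that 1 had been added, and it was subtracted. The annotation, the read depth, the strand setting and any other scaling were not given in the sources, so no counting interval is printed. A letter in 1 cell removed 1 gene, and 3.33% of values were then 0.

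Groups follow sample titles. Tests covered the 13099 genes reaching 1 FPKM in 2 or more libraries. limma 3.58.1 under R 4.3.3 (lmFit, then eBayes with trend) was fitted to log2(FPKM + 1), with all 8 groups together and 8 residual degrees of freedom, and the threshold was a Benjamini-Hochberg adjusted p of 0.05. Adding 1 understates changes of low genes. Contrasts were the genotypes within each cell type, their average, an F test of their difference, and cell types within each genotype.

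The members, lists and alternatives were chosen with earlier results of these data known. Named genes were the members, Tex10, up to 4 called genes of each pathway list with the largest change in a comparison, leading markers and the 5 genes most like Rela, Nfkbia and Ikbkb. Ltb, Jun and markers listed at 0 were named after their values were seen. The alternatives changed the pseudocount (0.1 or 5), the filter (none or 5 FPKM), the scaling (median of ratios or quantile), the eBayes trend, the grouping (by cell type field), the libraries fitted and the replicate block. A crossed replicate block was added after seeing the data. In a simulation of the MI genotype comparison on 13099 genes with 200 changed, the share recovered was 82% at a log2 change of 2 and 13% at 1, and 4 of 99 calls were false. The changed genes were drawn from the more abundant ones, and all genes were given a common spread. These shares therefore do not carry over to members of low level such as Nfkb2. Positions were read from GENCODE M21 and upstream sequences from RefSeq, with Python 3.11.15, pandas 2.3.3 and matplotlib 3.10.9.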

Additional observations from a re-analysis of the deposited data

How the results depend on the processing

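Of the 40 called member changes between cell types, 29 were called without each library in turn and 27 also under every other alternative except the grouping by the cell type field. Leaving out each library in turn gave 3 to 5 called members for MI spermatocytes minus spermatogonia in the wild type (5 with all libraries) and 5 to 7 in Tex10-deficient cells (7). The ranges were 3 to 4 for MII minus MI spermatocytes in each genotype (3 in both), 6 to 7 in Tex10-deficient and 7 in wild-type cells for spermatids minus MII spermatocytes (7 in both), and 2 to 4 in Tex10-deficient (5) and 1 to 4 in wild-type cells (3) for spermatids minus MI spermatocytes. Every genotype count stayed at 0 in these fits, and outside the field grouping the smallest adjusted p of a member was 0.0714. With a pseudocount of 5, MI spermatocytes minus spermatogonia in the wild type called 2. Spermatids minus MI spermatocytes in Tex10-deficient cells called 3 under a pseudocount of 5, median-of-ratios scaling, quantile normalization, the field grouping and the fit of only the compared libraries, which tested 7 members. Quantile normalization called 5 for MII minus MI spermatocytes in Tex10-deficient cells, and moved the median of all genes, for example from -0.07 to -0.25 for MI spermatocytes minus spermatogonia in the wild type. The cause of these shifts was not tested.

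Grouping the Tex10-deficient libraries by the cell type field, which places 6 of them in other groups, called 3 members between genotypes in MI, 3 in MII and 3 by the F test. It called 1 for MI spermatocytes minus spermatogonia and 0 for spermatids minus MI spermatocytes in the wild type, and 0 for MI spermatocytes minus spermatogonia and 0 for spermatids minus MII spermatocytes in Tex10-deficient cells. It reversed 15 single values, all under this setting. Between genotypes these were Nfkb1 2.38 and Nfkbia 2.52 in MI, and Nfkb1 -2.61 and Nfkbia -3.11 in MII spermatocytes. In Tex10-deficient cells they were Rel 0.34 and Chuk 0.48 for MI spermatocytes minus spermatogonia, and Nfkb1 -2.36, Nfkb2 -2.05 and Nfkbia -2.61 for MII minus MI. For spermatids minus MII they were Nfkb1 0.14, Nfkb2 0.13, Rel 0.37, Nfkbia 0.071 and Nfkbib -0.15, and for spermatids minus MI Nfkb1 -2.22. Of 3092 single values, 2976 kept direction and side of the threshold where called, 79 lost and 22 gained a call. Of 2005 uncalled in both fits, 72 changed sign.

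Nothing in the labels says what the replicate numbers mark. Deviations of same-numbered libraries of both genotypes correlated at 0.20, 0.0038, 0.31 and -0.13 from spermatogonia to spermatids. Between cell types of 1 genotype they correlated at -0.082 to 0.42 in Tex10-deficient and 0.14 to 0.36 in wild-type cells, and with 2 numbers a group this does not settle a pairing. With the replicate block, genotype counts were 0 in every cell type, on average and by the F test, and cell type counts were 7, 3, 7 and 5 in Tex10-deficient and 5, 3, 7 and 4 in wild-type cells, where Rela in spermatids minus MI spermatocytes gained a call. Crossing the numbers of the Tex10-deficient spermatids called 0 members. Depth is unknown, and 2 libraries a group limit what can be called. Library names are numbered in a separate block for each genotype, and the labels do not say what that numbering marks. Genotype cannot be told apart from it.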
